A study of Mus musculus with 48 samples.

Results

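The inbred strains that founded the BXD panel, C57BL/6J and DBA/2J, supplied kidney slices from male mice. The slices were cultured ex vivo under normoxia, which the submitters call an ischemia model, or under normoxia and then hyperoxia, which they call a reperfusion model. The strain difference in the response to hyperoxia is the interaction of the resulting 4 groups: the change from normoxia to normoxia-hyperoxia in DBA/2J minus the same change in C57BL/6J. The groups were chosen by the library titles, and each held 3 libraries of 24 h cultures, so 12 of the 48 libraries of the series entered the comparison. The labels name no further allele or agent for these groups. Age, the oxygen levels and the time of the switch are not given in the sources used here, and the labels number the replicates without saying whether same-numbered slices came from the same mouse, so p-values measure the spread between these libraries.

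Slices hold the tubules, vessels and stroma of the kidney together with its resident immune cells, cut off from the circulation. The proximal tubule depends on mitochondrial respiration and is known as the segment most easily injured when oxygen falls and returns. Reoxygenation is known to raise heat shock proteins, which refold cytosolic proteins, and to burden the endoplasmic reticulum, where secreted and membrane proteins fold, while the proteasome degrades proteins that cannot be refolded. An interaction above 0 (called higher here) means that the log2 fold change was greater in DBA/2J, and one below 0 (called lower) that it was smaller, whichever way the gene moved.

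Total counts of the 12 libraries ranged from 5619309 to 25137581, and the lowest belonged to DBA/2J normoxia-hyperoxia replicate 2 (the next was 17409315). Mitochondrial genes took 22.8% to 25.6% of the counts in C57BL/6J under normoxia and 11.8% to 12.8% in DBA/2J under normoxia, and the ranges under normoxia-hyperoxia were 12.2% to 16.6% and 11% to 17.4%. Defining markers of the proximal tubule, loop of Henle, collecting duct, podocyte and endothelium were detected in every group, with 0 markers of these lists at 0. Single values are given in CPM, the count scaled to the total of its library.

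The changes in both strains were broadly alike: across the 17228 genes tested, the log2 fold changes of C57BL/6J and DBA/2J had a Pearson correlation of 0.87, given as a description because genes are not replicates. In C57BL/6J 5397 genes rose (31.3% of those tested) and 5246 fell (30.5%), and in DBA/2J 5815 rose (33.8%) and 5978 fell (34.7%). The interaction itself passed an adjusted p-value under 0.05 for 3134 genes, or 18.2% of those tested, with 1241 higher (7.2%) and 1893 lower (11%) in DBA/2J (edgeR quasi-likelihood test, Benjamini-Hochberg). Of these, 835 exceeded a log2 value of 1, and there the order of the directions turned, with 618 higher and 217 lower.

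**Figure D1:**
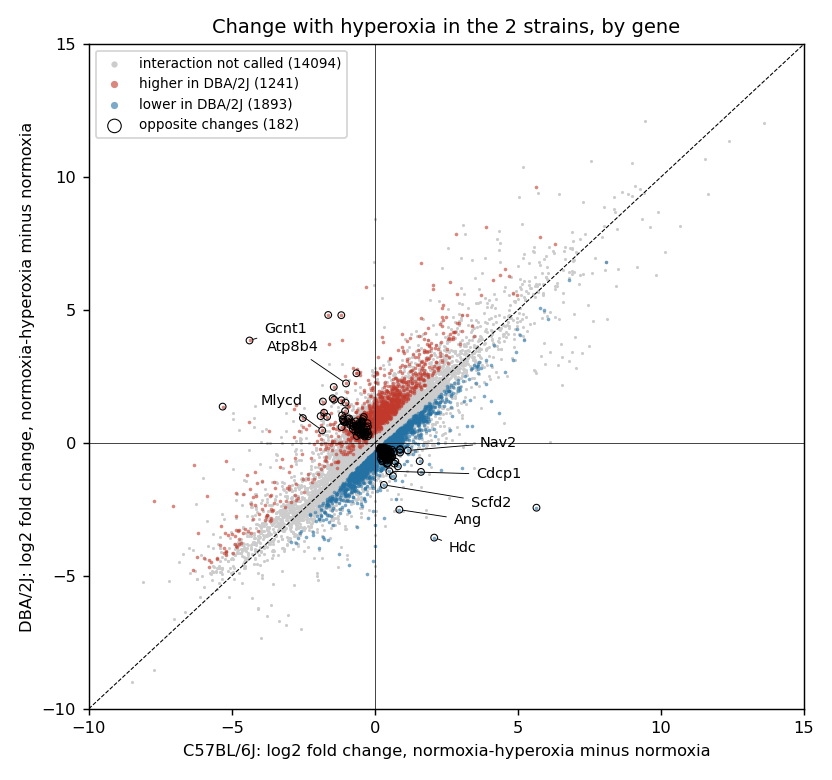
Each point is 1 of 17228 genes, placed by its log2 fold change from normoxia to normoxia-hyperoxia in C57BL/6J (x axis) and DBA/2J (y axis). Genes with a called interaction lie off the dashed line of equal change, 1241 above it and 1893 below it, and the 182 circled genes lie in the quadrants of opposite change.

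The balance of directions depended on how genes were filtered and scaled. Higher calls made up 39.6% of all calls, but 61.2% without the filter on low counts, 58.5% among genes with a mean CPM of at least 5, 51.5% in a fit of all 48 libraries and 53.1% after cyclic loess scaling. They stayed the minority with RLE in place of TMM factors (44.1%), with mitochondrial genes left out (44.1%), by DESeq2 (45.1%), by limma voom (39.85%) and with a replicate block (42.6%). The interaction also moved with expression level: with genes split into 5 equal groups by mean level, its median was 0.28 in the lowest, then 0.23, -0.04 and -0.16, and -0.22 in the highest, where 26.5% of the genes were lower and 5.72% higher. The median over all genes was -0.05. Gene lists are therefore read beside the median of the level group in which their own median level lies. The lower calls came to 1235 without C57BL/6J normoxia-hyperoxia replicate 1 and to 1240 without DBA/2J normoxia-hyperoxia replicate 2.

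By the within-strain tests, 1011 interaction genes changed in the same direction in both strains and more strongly in DBA/2J, and 531 did so more strongly in C57BL/6J. A further 874 passed in DBA/2J and not in C57BL/6J, 528 passed in C57BL/6J and not in DBA/2J, and 8 passed in neither. The largest block of higher genes rose in both strains: 474 genes had a median log2 fold change of 0.81 in C57BL/6J and 1.75 in DBA/2J. A comparable block of 448 genes rose in DBA/2J, with a median of 1.08, and had a median of 0.02 without passing in C57BL/6J. Among lower genes, 537 fell in both strains, with medians of -0.62 in C57BL/6J and -1.21 in DBA/2J, and 424 rose in both, with medians of 1.32 and 0.72. Protein-coding genes were called in 2994 of 14723 cases (20.3%), long noncoding RNAs in 72 of 1312 (5.49%) and pseudogenes in 40 of 608 (6.58%).

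For most of these genes the strains lay closer together after hyperoxia. The distance between the strains' mean levels was smaller under normoxia-hyperoxia than under normoxia for 73.3% of the 3134 interaction genes, against 58.6% of all genes tested. Its median on the log2 scale was 0.51 under normoxia and 0.23 under normoxia-hyperoxia for the interaction genes, and 0.32 and 0.23 for all genes. These levels are scaled to library totals, and the share of mitochondrial genes in them differed between the strains under normoxia, as given above. With mitochondrial genes left out of the totals the distance was smaller for 66.1% of the interaction genes, against 59.1% of all genes, and with TMM scaling, edgeR's trimmed mean factors, for 72.7% and 61.4%, both chosen after seeing the data. The interaction is itself the change of the signed strain difference between the conditions, so its genes were chosen on the values compared here. Their shares and medians beside those of all genes are therefore a description and no separate result.

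The 8 higher genes with the smallest p-values were Mlycd, Gcnt1, Rab7b, Cxcr4, Cytip, Atp8b4, Lcp1 and Abcc2. Mlycd (ENSMUSG00000074064, chr8:119394878-119411102 of GRCm38), malonyl-CoA decarboxylase, which removes the inhibitor of fatty acid import into mitochondria, had 55.2, 43.4 and 47.3 CPM in C57BL/6J under normoxia and 12.6, 14.5 and 13.8 CPM under normoxia-hyperoxia. Its DBA/2J levels were 48.8, 48.3 and 52.1 CPM under normoxia and 76.2, 80.1 and 76.7 CPM under normoxia-hyperoxia. The strains overlapped under normoxia and were far apart after hyperoxia, with an interaction of 2.31 (SE 0.137, edgeR adjusted p = 7.89e-07).

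Gcnt1 (ENSMUSG00000038843, chr19:17326141-17372844), an N-acetylglucosaminyltransferase that branches O-linked glycans, had the interaction of largest size among the named genes. It stood at 277, 313 and 339 CPM in C57BL/6J under normoxia and fell to 13.5, 17.7 and 13.2 CPM, while in DBA/2J it rose from 3.28, 1.82 and 1.09 CPM to 29.5, 34.9 and 37.9 CPM. The strain order was thus reversed between the conditions without any overlap of groups, and the interaction was 8.23 (SE 0.363, edgeR adjusted p = 9.38e-07), a ratio of 300.5 between the strains' fold changes.

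Rab7b, a small GTPase of endosomal trafficking, rose in both strains. Its levels went from 5.86, 6.29 and 4.54 CPM to 11, 9.67 and 12 CPM in C57BL/6J, and DBA/2J went from 1.27, 1.41 and 1.72 CPM to 21, 21.4 and 17.9 CPM (interaction 2.63, SE 0.225, edgeR adjusted p = 1.22e-05). Cxcr4, the chemokine receptor that guides leukocytes, rose from 9.49, 9.11 and 7.40 CPM to 22.3, 22 and 25.1 CPM in C57BL/6J, and DBA/2J went from 4.83, 4.22 and 5.59 CPM to 56.2, 51.6 and 47 CPM (interaction 1.815, SE 0.176, edgeR adjusted p = 4.8e-05). In both genes DBA/2J was the lower strain under normoxia and the higher strain after hyperoxia.

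Cytip, a cytohesin-binding protein of leukocytes, and Lcp1, the leukocyte actin-bundling protein L-plastin, also went from the lower to the higher level in DBA/2J. Cytip had 34.5 to 44.6 CPM in the 6 C57BL/6J libraries, and DBA/2J went from 17.7, 21 and 18.3 CPM to 62.4, 73 and 62.5 CPM. Cytip had log2 fold changes of 0.03 in C57BL/6J (edgeR adjusted p = 0.858) and 1.62 in DBA/2J (edgeR adjusted p = 8.21e-09), and Lcp1 0.05 (edgeR adjusted p = 0.72) and 1.59 (edgeR adjusted p = 9.76e-09). Abcc2, the apical export pump for organic anions of the proximal tubule, fell in both strains. It went from 212, 174 and 202 CPM to 4.90, 4.54 and 4.69 CPM in C57BL/6J, and DBA/2J went from 99.7, 97.1 and 107 CPM to 16.9, 9.43 and 11.3 CPM, so the fall was deeper in C57BL/6J (interaction 2.26, SE 0.225, edgeR adjusted p = 9.41e-05).

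The 8 lower genes with the smallest p-values were Hdc, C4a, Rnase4, Nav2, Fbln7, Tmem87b, Ang and Scfd2. All 8 stood higher in DBA/2J than in C57BL/6J under normoxia. Hdc (ENSMUSG00000027360, chr2:126593667-126619299), histidine decarboxylase, which makes histamine, had 410, 379 and 410 CPM in DBA/2J under normoxia and fell to 47.2, 37.9 and 29.2 CPM. In C57BL/6J it rose from 0.306, 0.594 and 0.714 CPM to 2.29, 2.07 and 2.42 CPM, so DBA/2J stayed above every C57BL/6J library in both conditions (interaction -5.64, SE 0.336, edgeR adjusted p = 9.38e-07).

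C4a, a complement component closely related to C4b, had 71.2, 62.2 and 73.3 CPM in DBA/2J under normoxia and 4.48, 3.38 and 2.76 CPM under normoxia-hyperoxia. In C57BL/6J it lay between 1.53 and 2.62 CPM in all 6 libraries, and the interaction was -4.39 (SE 0.3, edgeR adjusted p = 1.49e-06). Reads that C4a and C4b share could be split between them, and C4b, with an interaction of -2.01 (SE 0.673, edgeR adjusted p = 0.0649), is uncertain for the same reason. Fbln7, a fibulin of the extracellular matrix, fell from 73.5, 79.9 and 98.0 CPM to 6.38, 4.80 and 7.32 CPM in DBA/2J, where it overlapped the C57BL/6J libraries, which held 5.16 to 8.35 CPM over both conditions (interaction -3.88, SE 0.277, edgeR adjusted p = 6.4e-06).

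Rnase4 and Ang, secreted ribonucleases whose annotated genes overlap on chromosome 14, had interactions of -2.49 (SE 0.174, edgeR adjusted p = 1.49e-06) and -3.37 (SE 0.285, edgeR adjusted p = 1.16e-05), and their overlap makes the assignment of reads uncertain. Rnase4 fell in DBA/2J from 86.5, 101 and 100.4 CPM to 19.01, 20.5 and 16.5 CPM and lay between 5.86 and 8.27 CPM in the 6 C57BL/6J libraries. Tmem87b, a membrane protein of the Golgi, fell in DBA/2J from 91.2, 93.1 and 95.4 CPM to 33.8, 40.6 and 37.6 CPM, where it overlapped C57BL/6J, which held 35.8 to 45.2 CPM over both conditions (interaction -1.35, SE 0.114, edgeR adjusted p = 1.16e-05). All 16 of these genes, 8 higher and 8 lower, passed the threshold under every alternative that tested them and with each library left out in turn. Atp8b4 lies under the stricter filter of a mean CPM of at least 5 and was not tested there.

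Opposite changes, in which the interaction and both within-strain effects passed with different signs, were found for 182 genes (1.06% of those tested). Of these, 107 rose in C57BL/6J and fell in DBA/2J, and 75 fell in C57BL/6J and rose in DBA/2J. Most were modest: both effects exceeded a log2 value of 0.5 in 56 genes and of 1 in 18, and in 4 of the 18 at least 1 group lay at or under 3 counts in every library. The distance between the strains was smaller after hyperoxia in 78.0% of the 182 genes, which were chosen on the same values.

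The 8 opposite changes with the smallest interaction p were Mlycd, Gcnt1, Hdc, Nav2, Ang, Scfd2, Cdcp1 and Atp8b4. Nav2, a neuron navigator protein, rose in C57BL/6J from 53.5, 54.7 and 54.0 CPM to 127, 106 and 128 CPM, while in DBA/2J it fell from 117, 124 and 126 CPM to 108, 118 and 116 CPM. The fall in DBA/2J was small (log2 -0.28, edgeR adjusted p = 0.00353) and its CPM ranges overlapped between the conditions, and the interaction was -1.43 (SE 0.107, edgeR adjusted p = 3.14e-06). Cdcp1, a transmembrane protein with CUB domains, rose from 34.5, 38.2 and 42.7 CPM to 61.9, 49.5 and 53 CPM in C57BL/6J and fell from 97.2, 112 and 115 CPM to 52.8, 53.7 and 66.4 CPM in DBA/2J, so the strains overlapped after hyperoxia and not before.

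Scfd2 fell in DBA/2J from 33.3, 27.1 and 27.8 CPM to 11.2, 11 and 11 CPM and went from 10.1, 8.52 and 10.5 CPM to 12.1, 11.5 and 12.9 CPM in C57BL/6J (interaction -1.89, SE 0.172, edgeR adjusted p = 2.46e-05). Ang rose from 1.14, 0.842 and 0.816 CPM to 1.86, 1.79 and 1.46 CPM in C57BL/6J and fell from 13, 16.3 and 16.6 CPM to 3.39, 2.85 and 2.71 CPM in DBA/2J. Atp8b4, a P-type ATPase of the flippase family, fell from 2.71, 3.57 and 2.86 CPM to 1.22, 1.31 and 2.02 CPM in C57BL/6J and rose from 1.15, 1.82 and 1.60 CPM to 7.75, 9.25 and 7.42 CPM in DBA/2J (interaction 3.25, SE 0.33, edgeR adjusted p = 6.89e-05). Among these 8 genes the C57BL/6J change was the larger one for Mlycd, Gcnt1 and Nav2, and the DBA/2J change for the other 5.

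**Figure D2:**
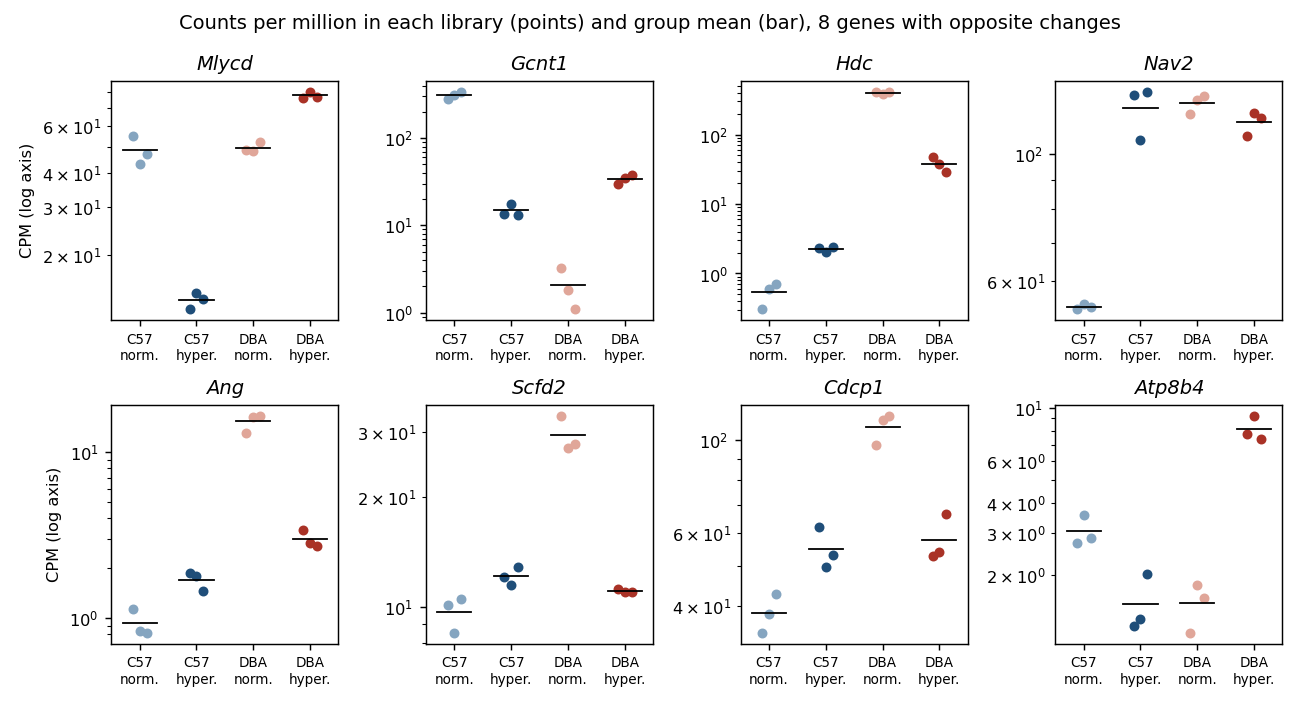
CPM on a log axis for the 8 opposite changes with the smallest interaction p, with a point for each of the 3 libraries per group and a bar at the group mean (norm., normoxia; hyper., normoxia-hyperoxia). Gcnt1 falls from 277 to 339 CPM to 13.2 to 17.7 CPM in C57BL/6J and rises in DBA/2J, and Hdc, Ang and Scfd2 start far higher in DBA/2J.

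Across 38 lists of gene classes and 9 of cell markers, the share and direction of calls varied widely. In 14 of the 47 lists the called share was under the 18.2% of all genes tested. Many of these counts rest on few libraries. Of 68 counts of higher or lower members above 0, 43 moved by over 1.5 times when some library was left out and 52 under some other alternative (another scaling, filter or tool, a replicate block, or all 48 libraries in the fit), and 15 moved by neither. Of the 17 counts of 5 or more, 5 moved by neither: the higher members of the immune cell, major histocompatibility complex and TGF-beta and YAP lists and the lower members of the glycolysis and iron lists. Beside counts that moved by over 1.5 times, the values without a library or over these alternatives are given. There normoxia 1 to 3 and hyperoxia 1 to 3 name the replicates of the normoxia and normoxia-hyperoxia groups. The mitochondrial genome, immune cells and the major histocompatibility complex had the largest shares of higher members, and endoplasmic reticulum folding, the proteasome and cytosolic heat shock proteins the largest shares of lower members. Many of the mitochondrial counts are uncertain, as given below. The cytosolic ribosomal proteins, 32 genes tested, had 0 called by edgeR, DESeq2 or limma voom and 1 with an unadjusted p-value under 0.05, with a median interaction of -0.02 in edgeR, which turned to 0.20 after cyclic loess scaling.

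**Figure D3:**
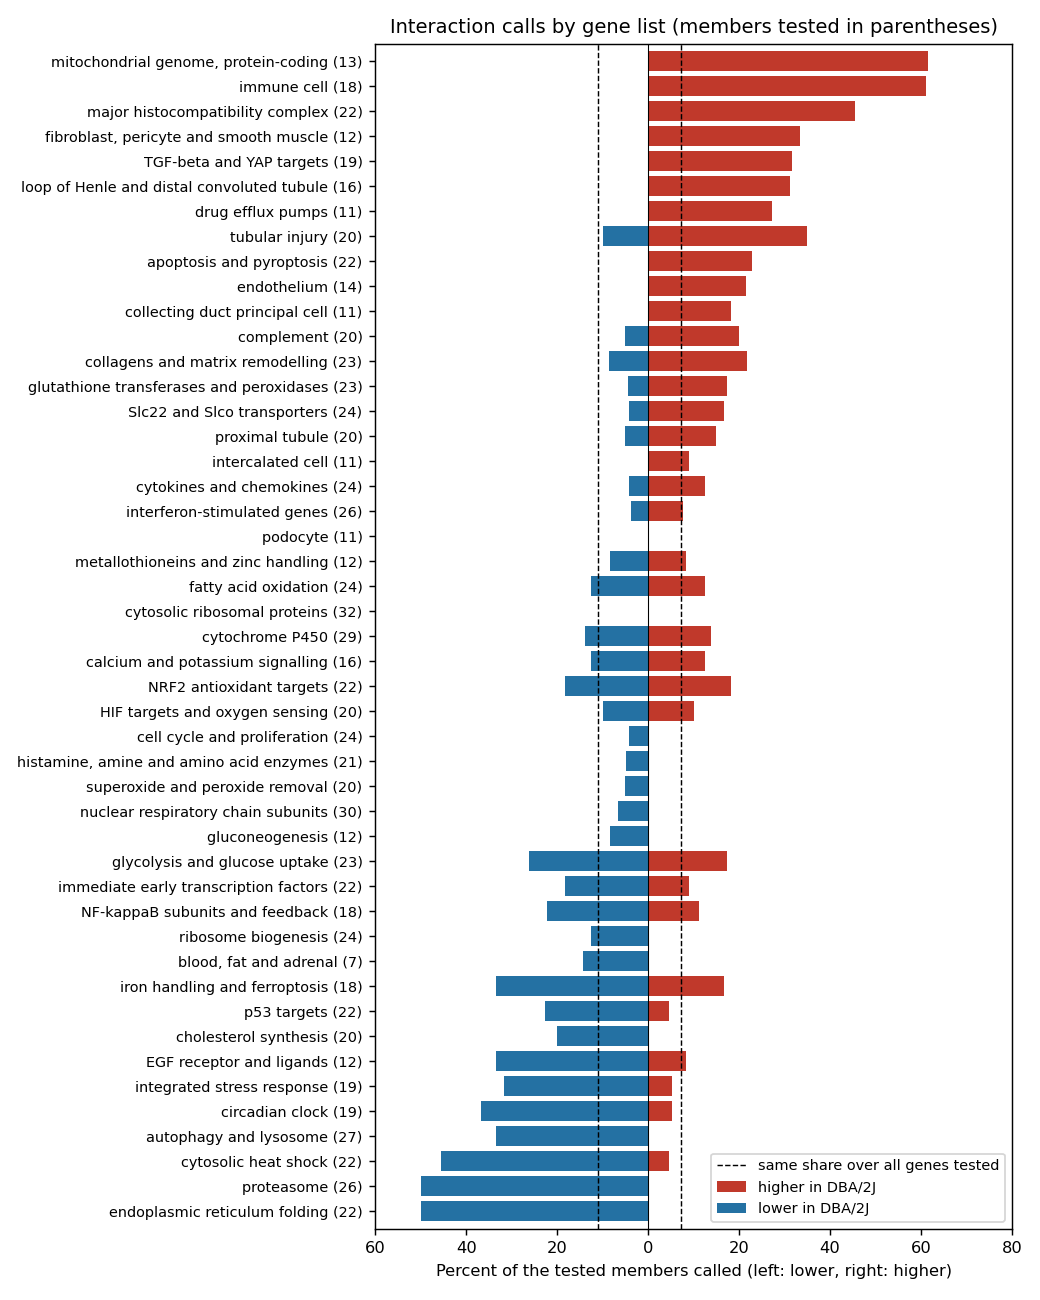
For each gene list, the percent of its tested members with a called interaction, higher in DBA/2J to the right and lower to the left, with the same shares over all genes tested (7.2% and 11%) as dashed lines. The mitochondrial genome (8 of 13) and immune cell markers (11 of 18) lead on the right, and endoplasmic reticulum folding (11 of 22) and the proteasome (13 of 26) on the left. Counts of several mitochondrial genes are uncertain, as given in the text.

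Genes that fold proteins in the endoplasmic reticulum all had an interaction below 0 (22 of 22 tested), and 11 passed as lower. Their median was -0.53, beside -0.22 for the genes of the highest level group, and it was -0.35 after cyclic loess scaling, with 7 passing. Over all the alternatives 7 to 14 passed. Sel1l, which retrotranslocates misfolded proteins, had an interaction of -0.79 (SE 0.124, edgeR adjusted p = 0.000817). The lectin chaperones Canx and Calr, which hold glycoproteins while they fold, had -0.69 (SE 0.123, edgeR adjusted p = 0.00187) and -0.71 (SE 0.131, edgeR adjusted p = 0.00234), and the co-chaperone Dnajc3 had -0.66 (SE 0.12, edgeR adjusted p = 0.00217).

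Calr stood at 1004, 1004 and 1068 CPM in DBA/2J under normoxia and fell to 621, 669 and 687 CPM, which overlapped the 562 to 659 CPM of the C57BL/6J libraries over both conditions. Canx fell in DBA/2J from 411, 420 and 477 CPM to 341, 345 and 346 CPM, with 294 to 318 CPM in C57BL/6J under normoxia and 328 to 373 CPM under normoxia-hyperoxia. Hspa5, the central chaperone BiP, rose in both strains, by 2.11 in C57BL/6J and 1.38 in DBA/2J, and its interaction of -0.73 (SE 0.253) missed the threshold (edgeR adjusted p = 0.0589). The count of 11 lower members was 7 without replicate 1 of C57BL/6J, replicate 1 of DBA/2J or replicate 2 of DBA/2J under normoxia-hyperoxia.

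Many genes of this list are known targets of the unfolded protein response, whose factors ATF6 and NF-Y read the endoplasmic reticulum stress element. In C57BL/6J 9 of the 22 list members rose and 6 fell, and in DBA/2J 5 rose and 11 fell. The 250 bases before the start site were searched on both strands for its letters, CCAAT and CCACG separated by 9 bases of any kind, in RefSeq promoters of GRCm38.p6. The element was present in 8 of the 19 tested members with a promoter in the table and in 0.13% of 27025 genes. Since many members are known targets, the larger share in the list could follow from how the list was chosen. The element was present in 5 of the 11 lower members, Canx, Dnajc3, Calr, Pdia6 and Hsp90b1, and in 3 that did not pass, and its part in the interaction was not tested. Of these 5, Pdia6 and Hsp90b1 lost their call after cyclic loess scaling, with a mean CPM of at least 5, with all 48 libraries and without some single libraries. The promoters of the 3 with the smallest interaction p are shown 5′ to 3′ on the strand of the gene, with the element in capitals: Canx at chr11:50325674-50325923 (minus strand), Dnajc3 at chr14:118937682-118937931 (plus strand) and Calr at chr8:84846932-84847181 (minus strand, where the match lies on the opposite strand).
Canx: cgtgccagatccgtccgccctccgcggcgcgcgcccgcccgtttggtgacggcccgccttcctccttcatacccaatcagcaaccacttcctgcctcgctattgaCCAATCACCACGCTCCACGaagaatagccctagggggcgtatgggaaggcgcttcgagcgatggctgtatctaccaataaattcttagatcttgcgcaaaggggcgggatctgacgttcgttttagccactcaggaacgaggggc
Dnajc3: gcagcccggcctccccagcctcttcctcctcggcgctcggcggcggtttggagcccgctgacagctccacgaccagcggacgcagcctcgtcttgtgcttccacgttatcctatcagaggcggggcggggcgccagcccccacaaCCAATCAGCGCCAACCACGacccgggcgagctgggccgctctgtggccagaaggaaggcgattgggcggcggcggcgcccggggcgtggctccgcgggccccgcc
Calr: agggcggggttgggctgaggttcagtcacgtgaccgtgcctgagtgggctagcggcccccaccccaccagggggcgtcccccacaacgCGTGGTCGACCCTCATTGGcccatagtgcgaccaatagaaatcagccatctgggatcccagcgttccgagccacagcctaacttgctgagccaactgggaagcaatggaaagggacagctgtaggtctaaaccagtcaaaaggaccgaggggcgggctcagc
The capitals mark a match of letters and say nothing on whether a factor bound there in these slices.

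Most cytosolic heat shock genes rose in both strains, and nearly all called interactions were lower. Of 22 tested, 20 rose in C57BL/6J and 16 in DBA/2J, and 10 had a lower and 1 a higher interaction, with a median of -0.50, beside -0.22 for their level group, or -0.28 after cyclic loess scaling, which left 5 lower and 1 higher. The higher member was Cryab, the small heat shock protein alpha-B crystallin, named after its value was seen (interaction 1.64, SE 0.443, edgeR adjusted p = 0.028), which lost its call without any one of 8 libraries and in a fit with a replicate block (edgeR adjusted p = 0.102). Hspd1, the chaperonin HSP60, which works in mitochondria although it stands on this list, had the smallest p: it went from 323, 294 and 301 CPM to 986, 482 and 570 CPM in C57BL/6J, and DBA/2J went from 464, 441 and 457 CPM to 350, 444 and 365 CPM (interaction -1.55, SE 0.29, edgeR adjusted p = 0.00386). Replicate 1 of C57BL/6J under normoxia-hyperoxia was the highest of the 12 libraries for Hspd1, and without it 6 members of the list were lower. Hspe1, the co-chaperonin of HSP60, lost its call after cyclic loess scaling, with all 48 libraries and without any one of 7 libraries, and the lower count of the list was 5 to 12 over the alternatives.

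Hsph1, a nucleotide exchange factor for HSP70, rose by 5.09 in C57BL/6J and 4.07 in DBA/2J (interaction -1.02, SE 0.231, edgeR adjusted p = 0.00777), and its co-chaperone Dnaja1 by 2.02 and 1.19 (interaction -0.83, SE 0.194, edgeR adjusted p = 0.00922). The inducible HSP70 genes Hspa1a and Hspa1b, near-identical copies whose reads are uncertain, rose by 8.39 and 8.34 in C57BL/6J and by 8.70 and 8.79 in DBA/2J, with interactions of 0.31 (SE 0.351, edgeR adjusted p = 0.586) and 0.45 (SE 0.358, edgeR adjusted p = 0.419). Hspd1 shares its promoter with Hspe1, the co-chaperonin, whose start lies on the other strand. A heat shock element, written as GAA, TTC and GAA with 2 bases of any kind between each and read on either strand, was present in the 250 bases before the start site of both, in 2 of the 17 tested members with a promoter in the table and in 0.514% of all genes. The Hspd1 promoter, chr1:55087933-55088182 on the minus strand, is shown with 2 overlapping matches in capitals.
Hspd1: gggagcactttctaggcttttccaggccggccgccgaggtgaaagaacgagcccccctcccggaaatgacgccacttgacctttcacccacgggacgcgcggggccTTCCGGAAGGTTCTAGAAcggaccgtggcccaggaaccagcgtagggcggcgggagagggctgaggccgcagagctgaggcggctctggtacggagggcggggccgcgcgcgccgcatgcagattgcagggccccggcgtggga
None of the other members with a promoter in the table held these letters in this window.

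Proteasome subunits were lower as well. Of 26 subunits tested, 25 had a value below 0 and 13 passed, with a median of -0.40, beside -0.22 for their level group and -0.20 after cyclic loess scaling, where 4 passed. In C57BL/6J 5 subunits rose and 7 fell, and in DBA/2J 1 rose and 22 fell. Psmd11, a lid subunit, rose by 1.52 in C57BL/6J and 0.68 in DBA/2J (interaction -0.84, SE 0.124, edgeR adjusted p = 0.000582). Psmd2, Psmd12 and Psmc2, of the regulatory particle, were opposite changes, with 0.38, 0.25 and 0.23 in C57BL/6J and -0.30, -0.34 and -0.42 in DBA/2J. The count of 13 fell to between 6 and 8 without any one of replicate 2 of C57BL/6J or replicates 1 and 2 of DBA/2J under normoxia, or replicates 1 and 3 of C57BL/6J and 2 and 3 of DBA/2J under normoxia-hyperoxia. Over the alternatives it was 4 to 19. The immunoproteasome subunits Psmb8 and Psmb9, which stand on the list of the major histocompatibility complex, were higher instead (0.64 and 0.91).

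Lysosome and autophagy genes had 9 of 27 lower and 0 higher, with a median of -0.38, beside -0.22 for their level group, and 6 lower and 2 higher after cyclic loess scaling. By limma voom 14 were lower. Lamp2, a lysosomal membrane protein, fell by 0.41 on the log2 scale in C57BL/6J and by 1.47 in DBA/2J (interaction -1.07, SE 0.127, edgeR adjusted p = 0.000169). Sqstm1, the autophagy receptor p62, rose by 2.67 in C57BL/6J and 1.77 in DBA/2J (interaction -0.90, SE 0.172, edgeR adjusted p = 0.00296), and Tfe3, a transcription factor of lysosome genes, by 1.47 and 0.93.

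The integrated stress response, which follows phosphorylation of a translation factor, had 6 of 19 lower and 1 higher, with a median of -0.23, beside -0.16 for its level group. Over the alternatives the lower count was 3 to 7 and the higher 0 to 2. The amino acid transporter subunit Slc3a2 rose by 1.49 in C57BL/6J and 0.31 in DBA/2J (interaction -1.18, SE 0.188, edgeR adjusted p = 0.000878). Psat1, of serine synthesis, had log2 fold changes of 0.29 (edgeR adjusted p = 0.141) and -0.98 (edgeR adjusted p = 0.000109). The single higher member was Slc7a11, the cystine transporter, with 4.36 and 6.32 (interaction 1.96, SE 0.648, edgeR adjusted p = 0.0481). It was named after its value was seen, and it lost its call without any one of 9 libraries, in a fit with a replicate block (edgeR adjusted p = 0.0516), by limma voom (adjusted p = 0.0568), after cyclic loess scaling (limma adjusted p = 0.225) and with all 48 libraries (edgeR adjusted p = 0.405). Without replicate 2 of C57BL/6J under normoxia, replicates 1 or 3 of C57BL/6J or replicate 2 of DBA/2J under normoxia-hyperoxia, 3 members were lower.

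**Figure D4:**
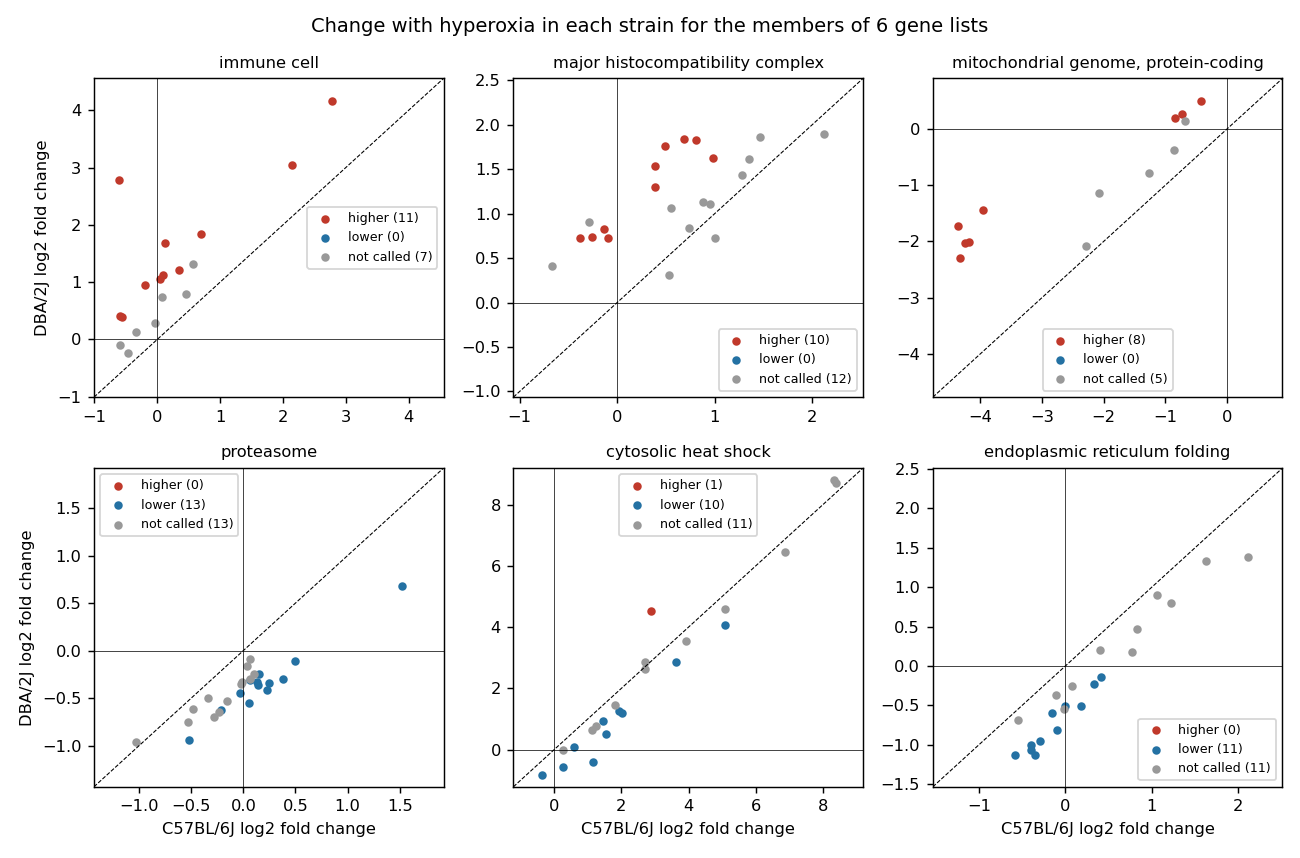
Log2 fold change with hyperoxia in C57BL/6J (x axis) and DBA/2J (y axis) for the members of 6 lists, colored by the interaction call, with a dashed line of equal change. Members of the upper 3 lists lie on or above the line for all 18 immune cell markers and 13 mitochondrial genes, and members of the lower 3 lie mostly below it.

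Immune cell markers were higher in large part: all 18 tested had a value above 0 and 11 passed, with a median of 0.93, beside 0.23 for their level group. In DBA/2J 12 of them rose and 0 fell, and in C57BL/6J 3 rose and 2 fell. Their summed level was 688 to 720 CPM in C57BL/6J and 449 to 554 CPM in DBA/2J under normoxia. Under normoxia-hyperoxia it was 855 to 1163 CPM and 1816 to 1959.8 CPM, so the 3 DBA/2J libraries passed from below all C57BL/6J libraries to above them. In bulk slices, more or fewer cells of a type and more or less RNA per cell cannot be told apart.

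Cd14, a lipopolysaccharide co-receptor of monocytes, rose by 2.78 in C57BL/6J and 4.16 in DBA/2J (interaction 1.38, SE 0.176, edgeR adjusted p = 0.000277), and Cd68, a lysosomal protein of macrophages, by 2.14 and 3.05 (interaction 0.91, SE 0.138, edgeR adjusted p = 0.000687). Adgre1, a macrophage surface receptor, had 0.13 (edgeR adjusted p = 0.469) and 1.69 (edgeR adjusted p = 1.48e-07). The pan-leukocyte gene Ptprc was at 25.7, 28.2 and 24.2 CPM and 17.6, 22.5 and 28 CPM in C57BL/6J and at 16, 19.2 and 17.9 CPM and 41.1, 42 and 33.3 CPM in DBA/2J. Its groups overlapped in C57BL/6J and were apart in DBA/2J. The count of 11 lay between 8 and 11 over the alternatives and between 9 and 11 with each library left out.

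The major histocompatibility complex list had 10 of 22 higher and 0 lower, with a median of 0.73, beside -0.22 for its level group and 0.70 after cyclic loess scaling. The called members were 7 genes of antigen presentation by class II, the 2 immunoproteasome subunits and the nonclassical H2-T23, an opposite change with -0.26 and 0.74. H2-Aa rose by 0.49 in C57BL/6J and 1.77 in DBA/2J (interaction 1.27, SE 0.178, edgeR adjusted p = 0.000439), H2-Ab1 by 0.39 and 1.54, and Cd74, the class II invariant chain that also stands on the immune cell list, by 0.69 and 1.84. H2-Aa had 191, 199 and 174 CPM and then 206, 295 and 295 CPM in C57BL/6J, and 107, 127 and 136 CPM and then 488, 473 and 459 CPM in DBA/2J. The classical class I genes H2-K1 and H2-D1 did not pass: H2-K1 had an interaction of 0.25, H2-D1 -0.27 and B2m, their light chain, 0.10. Reads of both strains were counted with GRCm38, and whether sequence differences between the strains shifted the counts of this list was not tested. The immune cell markers moved with this list, by the summed levels above, and their part in it was not tested.

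Cytokines and chemokines rose in both strains, 21 of 24 in each, with 3 higher and 1 lower in the interaction, a called share of 16.7% beside 18.2% of all genes. Il1b, the pyrogenic cytokine of myeloid cells, rose from 3.02, 3.76 and 3.11 CPM to 25.0, 28.7 and 27.2 CPM in C57BL/6J, and DBA/2J went from 1.76, 1.93 and 1.77 CPM to 59.4, 63.2 and 49.0 CPM (interaction 1.77, SE 0.19, edgeR adjusted p = 9.72e-05). Tnf rose by 4.12 and 6.12 (interaction 1.99, SE 0.563, edgeR adjusted p = 0.0242), and Cxcl16 by 2.01 and 2.54. The Tnf call was lost by limma voom (adjusted p = 0.0641), after cyclic loess scaling (limma adjusted p = 0.137) and without any one of replicates 2 and 3 of C57BL/6J or replicates 1 and 3 of DBA/2J under normoxia (edgeR adjusted p = 0.0581 to 0.122). The count of 3 higher members was 2 to 7 over the alternatives, and the lower count was 2 without C57BL/6J hyperoxia 2 and 1 to 2 over the alternatives. Il34, a ligand of the macrophage receptor CSF1R made by tubules, had -0.16 (edgeR adjusted p = 0.45) and -1.31 (edgeR adjusted p = 1.21e-05).

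Of 18 subunits and feedback genes of the transcription factor NF-kappaB tested, all rose in both strains, and 4 were lower and 2 higher. The inhibitors Tnip1 and Bcl3 rose by 1.74 and 1.92 in C57BL/6J and by 0.86 and 1.14 in DBA/2J. The lower count was 2 to 6 and the higher 1 to 4 over the alternatives, and the higher was 1 without any one of 4 libraries (C57BL/6J normoxia 1 or 2, C57BL/6J hyperoxia 3 or DBA/2J normoxia 1). Interferon-stimulated genes rose in 24 of 26 cases in C57BL/6J and in every case in DBA/2J, with 2 higher and 1 lower in the interaction, or 11.5% called. Their higher count was 1 without any one of 6 libraries (C57BL/6J normoxia 2 or 3, C57BL/6J hyperoxia 1 or 3 or DBA/2J normoxia 1 or 2), and 1 to 9 over the alternatives. Their lower count was 0 without any one of 5 libraries (C57BL/6J normoxia 2, C57BL/6J hyperoxia 3, DBA/2J normoxia 3 or DBA/2J hyperoxia 1 or 2), and 4 without DBA/2J hyperoxia 3, and 0 to 3 over the alternatives. Complement had 4 of 20 higher and 1 lower: the macrophage genes C1qa, C1qb and C3ar1 had interactions of 1.02, 0.94 and 1.15, and C4a was the lower member. The immune cell markers moved with these higher members and with the higher cytokines, by the summed levels given above, and their part in it was not tested. Lower members of complement numbered 2 without any one of 2 libraries (DBA/2J normoxia 2 or DBA/2J hyperoxia 1), and 1 to 2 over the alternatives.

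All 13 protein-coding genes of the mitochondrial genome had an interaction above 0, and 8 passed, with a median of 1.00, beside -0.22 for their level group. In C57BL/6J 12 of them fell, and in DBA/2J 8 fell and 1 rose. The genes mt-Nd1, mt-Nd2 and mt-Nd4, subunits of respiratory complex I, had log2 fold changes of -0.74, -0.84 and -0.42 in C57BL/6J and 0.26, 0.20 and 0.49 in DBA/2J, with interactions of 1.00, 1.04 and 0.91. The genes mt-Co2, mt-Co3, mt-Atp6, mt-Atp8 and mt-Nd4l, which encode parts of cytochrome oxidase, ATP synthase and complex I, had interactions of 2.51, 2.16, 2.21, 2.63 and 2.03. The called number was 5 without replicates 2 or 3 of DBA/2J under normoxia, or replicates 1 or 3 of C57BL/6J under normoxia-hyperoxia. The call of mt-Nd4l was lost without replicate 1 of DBA/2J under normoxia-hyperoxia (interaction 1.355, edgeR adjusted p = 0.123).

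The transcript mt-Co2 went from 202, 190 and 219 CPM to 8.25, 17.4 and 13.5 CPM in C57BL/6J, and DBA/2J went from 32.3, 28.9 and 18.2 CPM to 12.7, 9.08 and 10.3 CPM, so the strains were far apart under normoxia and overlapped after hyperoxia. Its level was low beside other mitochondrial transcripts. Per kilobase of transcript, mt-Co2 averaged 92.9 CPM over the 12 libraries and mt-Co3 70.7 CPM, and mt-Cytb and mt-Nd1, of the same polycistronic genome, 37510 and 21680 CPM. Beside these levels stand the shares of stretches of 31 bases found in called pseudogenes, given next. Per kilobase, mt-Atp6 averaged 81.4 CPM with 99.5% shared, mt-Nd4l 41.2 CPM with 98.9% and mt-Nd3 21.1 CPM with 98.1%. Further, mt-Co1 averaged 31720 CPM with 63.6%, mt-Atp8 52.1 CPM with 7.47% and mt-Nd6 180.5 CPM with 0%. The share covers annotated pseudogenes with a call only, and the part of shared sequence in these levels was not tested.

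Copies of mitochondrial sequence also lie in the nuclear genome. Of 17 unprocessed pseudogenes with a called interaction, 7 on chromosome 1, between 24611535 and 24616197 of GRCm38, had 97.2% to 100% of their stretches of 31 bases in mitochondrial transcripts. All 17 were higher, also the 8 with 0% of such stretches, among them Gm8189 (4.55) and Gm1966 (3.54), and the 2 on chromosome 2 with 45.2% and 48% (1.42 and 3.05). All such stretches of mt-Co2, 99.9% of those of mt-Co3 and 99.5% of those of mt-Atp6 also occur in the called pseudogenes, against 0% for mt-Cytb, mt-Nd1 and mt-Nd2. Reads of the shared stretches cannot be told apart between the copies, so the counts of mt-Co2, mt-Co3, mt-Atp6, mt-Nd4l (98.9% shared) and mt-Nd3 (98.1%), of mt-Co1 (63.6%) and mt-Nd4 (62.8%) and of these pseudogenes are uncertain, and how they were assigned is not given in the sources used here. Genome sequence between the annotated pseudogenes was not examined, so mt-Atp8, with 7.47% shared and a low level, is uncertain too. Of the mitochondrial genes named with their interactions above, only mt-Nd1 and mt-Nd2 had 0% shared. Nuclear genes of the respiratory chain had 0 higher and 2 lower of 30 (6.67% called, beside 18.2% of all genes), Cycs (interaction -0.75) and Uqcrc2 (-0.43), with a median of -0.24 in a level group whose median was -0.22. That count was 1 without any one of 7 libraries (C57BL/6J normoxia 2 or 3, C57BL/6J hyperoxia 1 or 3, DBA/2J normoxia 1 or DBA/2J hyperoxia 2 or 3) and 4 without DBA/2J normoxia 3, and 1 to 8 over the alternatives. Uqcrc2 lost its call without the filter (edgeR adjusted p = 0.133), with a mean CPM of at least 5 (edgeR adjusted p = 0.0826), after cyclic loess scaling (limma adjusted p = 0.199), with all 48 libraries (edgeR adjusted p = 0.0634) and without any one of 7 libraries.

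Marker lists of the tubule, vessels and stroma had more higher than lower members, other than podocytes, with 0 of each. Several called shares lay near or under the 18.2% of all genes. They were 20% for the proximal tubule, 18.2% for principal cells, 9.09% for intercalated cells, 0% for podocytes and 21.4% for endothelium. The loop of Henle and distal convoluted tubule list had 31.25% and the stromal list 33.3%. Proximal tubule markers fell in all 20 cases in both strains, and their summed level dropped from 31742 to 39638 CPM to 1145 to 1546 CPM in C57BL/6J, and DBA/2J went from 49247 to 52412 CPM to 2540.1 to 3711 CPM. Of the 20, 3 were higher and 1 lower. The higher count was 5 without any one of 2 libraries (C57BL/6J normoxia 2 or DBA/2J hyperoxia 3) and 0 to 9 over the alternatives, and the lower count was 0 without any one of 6 libraries (C57BL/6J normoxia 2, C57BL/6J hyperoxia 1 or 2, DBA/2J normoxia 3 or DBA/2J hyperoxia 2 or 3) and 0 to 3 over the alternatives. Slc34a1, the phosphate transporter, fell by 5.51 on the log2 scale in C57BL/6J and by 4.36 in DBA/2J (interaction 1.16, SE 0.294, edgeR adjusted p = 0.015), and Slc27a2, a fatty acid transporter, fell by 5.81 and by 4.66 (interaction 1.16, SE 0.253, edgeR adjusted p = 0.00661).

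Loop of Henle and distal convoluted tubule markers had 5 of 16 higher and 0 lower, with a median of 0.82, beside -0.22 for their level group. Egf, made by the distal tubule, had log2 fold changes of 0.21 (edgeR adjusted p = 0.35) in C57BL/6J and 1.35 in DBA/2J (edgeR adjusted p = 1.72e-05), and Kcnj1, the potassium channel ROMK, was an opposite change with -0.47 and 0.41. The summed level of this list was 18388 to 24437 CPM in C57BL/6J and 8357 to 9384 CPM in DBA/2J under normoxia and 18546 to 29228 CPM and 22770 to 25456 CPM under normoxia-hyperoxia, so the strains were apart before hyperoxia and overlapped after it. The count of 5 ranged from 2 to 8 with a library left out: it was 2 without replicate 1 of either strain under normoxia, 3 without DBA/2J normoxia replicate 2 or DBA/2J normoxia-hyperoxia replicate 3, and 8 without replicates 2 or 3 of C57BL/6J under normoxia-hyperoxia. Over the alternatives it was 5 to 14.

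Collecting duct principal cells had 2 of 11 higher (Gata3 and Scnn1a, 0.73 and 0.55), intercalated cells 1 of 11 (Atp6v1b1, 0.62) and podocytes 0 of 11 by edgeR (1 with an unadjusted p-value under 0.05 there, 1 higher by DESeq2 and 0 by limma voom), all with 0 lower. Endothelial markers had 3 of 14 higher, among them Emcn (0.94) and Egfl7 (0.59), and all 14 values lay above 0. The endothelial count was 1 without any one of 3 libraries (C57BL/6J normoxia 2, C57BL/6J hyperoxia 3 or DBA/2J normoxia 1), 5 without DBA/2J hyperoxia 1 and 7 without C57BL/6J hyperoxia 2, and 3 to 10 over the alternatives, and Egfl7 lost its call without any one of 3 libraries (edgeR adjusted p = 0.0507 to 0.0659). Principal cells had 4 higher without DBA/2J hyperoxia 3 and intercalated cells 2 without DBA/2J hyperoxia 2, with 2 to 6 and 1 to 4 over the alternatives. The list of fibroblasts, pericytes and smooth muscle had 4 of 12 higher, Rgs5, Dcn, Tagln and Acta2, at 0.73, 0.83, 0.92 and 1.18. Those 4 rested on few libraries: 0 to 2 remained called without any library other than replicates 2 and 3 of C57BL/6J under normoxia and replicate 3 of DBA/2J under normoxia-hyperoxia. With all libraries the stromal count was 3 to 9 over the alternatives. Dcn lost its call with all 48 libraries (edgeR adjusted p = 0.315) and after cyclic loess scaling (limma adjusted p = 0.0546), and Acta2 by limma voom (adjusted p = 0.0567). The DBA/2J sums of the loop of Henle, principal cell, endothelial and stromal lists all lay below the C57BL/6J sums under normoxia.

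Genes of tubular injury rose nearly throughout, 19 of 20 in C57BL/6J and all 20 in DBA/2J, with 7 higher and 2 lower in the interaction. The 7 were 4 to 9 over the alternatives. Havcr1, the injury marker KIM-1, had 1.31, 1.04 and 1.28 CPM and then 1.76, 1.15 and 0.554 CPM in C57BL/6J, and 5.08, 2.87 and 3.66 CPM and then 22.9, 14.2 and 18.8 CPM in DBA/2J (interaction 2.18, SE 0.474, edgeR adjusted p = 0.00685). It rose in DBA/2J without overlap and did not pass in C57BL/6J (edgeR adjusted p = 0.873). S100a6 and Sox4 had interactions of 0.82 and 0.75, and Tnfrsf12a, the TWEAK receptor, and the keratin Krt8 had -1.50 and -1.13. Lcn2, the injury marker NGAL, rose by 3.31 and 3.59, with an interaction of 0.27 (SE 0.659, edgeR adjusted p = 0.816).

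Targets of TGF-beta and YAP, which mark a repair response, had 6 of 19 higher and 0 lower, with a median of 0.46, beside -0.16 for their level group. Tgfbi had log2 fold changes of 0.64 in C57BL/6J and 1.79 in DBA/2J, and Ccn2 of 1.89 and 2.86 in the same order. Collagens and matrix remodelling genes had 5 of 23 higher and 2 lower. The 5 were 3 without any one of 2 libraries (C57BL/6J normoxia 2 or DBA/2J normoxia 1) and 2 to 10 over the alternatives, and the 2 lower members were 1 without any one of 10 libraries (C57BL/6J normoxia 2 or 3, C57BL/6J hyperoxia 1 or 3, DBA/2J normoxia 1, 2 or 3 or DBA/2J hyperoxia 1, 2 or 3) and 1 to 2 over the alternatives. Mmp9, a gelatinase, was an opposite change, with -1.12 and 0.89 (interaction 2.02, SE 0.469, edgeR adjusted p = 0.00886), and Timp3, a protease inhibitor, fell in DBA/2J (interaction -1.40, SE 0.216, edgeR adjusted p = 0.000714). Apoptosis and pyroptosis genes had 5 of 22 higher and 0 lower (22.7% called, beside 18.2% of all genes), with Bcl2a1b at 1.83 and the caspase Casp4 at 1.35. That count was 2 without C57BL/6J normoxia 2 and 3 without any one of 3 libraries (C57BL/6J normoxia 3 or DBA/2J normoxia 1 or 2), and 4 to 8 over the alternatives. Casp4 lost its call after cyclic loess scaling (limma adjusted p = 0.174), with all 48 libraries (edgeR adjusted p = 0.105) and without any one of 6 libraries (edgeR adjusted p = 0.0549 to 0.0994). The stromal and immune cell markers, with median interactions of 0.78 and 0.93, moved with the higher members of the lists in this paragraph. Their part in it was not tested.

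Targets of the hypoxia-inducible factor had 2 of 20 higher and 2 lower, a share of 20% beside 18.2% for all genes. The higher count was 1 without any one of 3 libraries (C57BL/6J normoxia 2 or DBA/2J normoxia 1 or 3) and 0 to 3 over the alternatives. Vegfa, the endothelial growth factor, rose by 1.43 and 1.25 in the order C57BL/6J and DBA/2J, and its interaction was -0.18 (SE 0.166, edgeR adjusted p = 0.492), and the glucose transporter Slc2a1 rose by 4.69 and 4.80, with an interaction of 0.12 (SE 0.218, edgeR adjusted p = 0.754). Vegfa's interaction was 0.04 after cyclic loess scaling, and Slc2a1's was -0.01 without replicate 3 of DBA/2J under normoxia-hyperoxia. Of those that passed, the carbonic anhydrase Car9 fell by 6.19 on the log2 scale in C57BL/6J and by 3.39 in DBA/2J, Lox rose more in DBA/2J (interaction 1.17), the collagen hydroxylase P4ha1 less (-0.93), and Ndrg1 was an opposite change with 0.42 and -0.79. The Lox call was lost after cyclic loess scaling (limma adjusted p = 0.117), with all 48 libraries (edgeR adjusted p = 0.552) and without any one of 3 libraries (edgeR adjusted p = 0.054 to 0.0662).

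Glycolysis had 4 of 23 higher and 6 lower: the kinases Pdk1 and Hk1 and pyruvate kinase Pkm had interactions of 0.83, 0.74 and 0.69, and triosephosphate isomerase Tpi1 had -0.77. Fatty acid oxidation had 3 of 24 higher and 3 lower, a called share of 25% beside 18.2% of all genes. Its lower count was 1 without any one of 2 libraries (C57BL/6J hyperoxia 1 or DBA/2J hyperoxia 3) and 0 to 8 over the alternatives. Beside Mlycd, the higher members were Pdk4, which spares pyruvate (2.71), and the thiolase Acaa2, an opposite change with -0.46 and 0.44. Cholesterol synthesis had 4 of 20 lower and 0 higher, with Nsdhl at -1.27 and Cyp51 at -1.08, and gluconeogenesis 1 of 12 lower, Got1 at -0.67. These were called shares of 20% and 8.33%, beside 18.2% of all genes. The cholesterol count was 2 without any one of 3 libraries (C57BL/6J normoxia 2, C57BL/6J hyperoxia 3 or DBA/2J hyperoxia 1), and 2 to 5 over the alternatives, and the gluconeogenesis count 1 to 2.

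Targets of NRF2, the regulator of antioxidant genes, had 4 of 22 higher and 4 lower. These counts rest on single libraries: the higher were 2 without any one of 3 libraries (C57BL/6J normoxia 1 or 3 or DBA/2J normoxia 2), and the lower were 1 or 2 without any one of 9 libraries (C57BL/6J normoxia 2 or 3, C57BL/6J hyperoxia 1 or 3, DBA/2J normoxia 1, 2 or 3 or DBA/2J hyperoxia 1 or 2). Over the alternatives the higher were 2 to 6 and the lower 1 to 5. Hmox1, heme oxygenase, rose by 6.04 in C57BL/6J and 4.67 in DBA/2J (interaction -1.37, SE 0.213, edgeR adjusted p = 0.000746), while the export pump Abcc1 rose by 1.17 and 2.21 and the quinone reductase Nqo1 fell by 0.93 on the log2 scale in C57BL/6J and by 0.33 in DBA/2J. The Nqo1 interaction lost its call without any one of 2 libraries (edgeR adjusted p = 0.0535 and 0.054). Superoxide and peroxide removal had 1 of 20 called, Txnrd2 at -0.56, and Nnt, a mitochondrial transhydrogenase whose gene carries a known deletion in C57BL/6J, had an interaction of 0.26 (SE 0.107, edgeR adjusted p = 0.108). Counts per gene do not show that deletion: Nnt stood at 116 to 143 CPM in the C57BL/6J libraries and 198 to 254 CPM in those of DBA/2J. Txnrd2 lost its call without the filter (edgeR adjusted p = 0.0638) and with all 48 libraries (edgeR adjusted p = 0.0978), and the superoxide and peroxide count was 2 without DBA/2J normoxia 3 and 0 to 2 over the alternatives.

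Iron handling had 3 of 18 higher and 6 lower, with the importer Slc11a2 at -1.23, the lipid-remodelling enzyme Lpcat3 at -0.82 and the iron-regulatory protein Ireb2 at -0.57. Glutathione transferases and peroxidases had 4 of 23 higher and 1 lower, or 21.7% called beside 18.2% of all genes. Mgst3 was the lower member (-1.20), Gstm1 and Gstm2 had 0.93 and 0.70, and Gsta2 had 1.82 (SE 0.307, edgeR adjusted p = 0.00192), falling in C57BL/6J from 86.6, 57.1 and 68.2 CPM to 15, 20.9 and 22.4 CPM and lying between 3.24 and 4.94 CPM in all 6 DBA/2J libraries. Close relatives in these families can share reads, so single members are uncertain. The higher count of this list was 4 to 7 over the alternatives.

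Organic ion transporters of the Slc22 and Slco families mostly fell, 21 of 24 in C57BL/6J and 19 in DBA/2J, and 4 were higher and 1 lower in the interaction. That was a called share of 20.8%, beside 18.2% of all genes. Proximal tubule markers fell in all 20 cases in both strains as well, and their part in this was not tested. The urate transporter Slc22a12 had log2 fold changes of -4.85 and -3.29, and Slco4a1 rose by 2.47 and 4.73. The higher count was 2 without any one of 4 libraries (C57BL/6J hyperoxia 1 or 3 or DBA/2J normoxia 1 or 2) and 3 to 15 over the alternatives, and the lower count was 2 without C57BL/6J hyperoxia 2 and 1 to 2 over the alternatives. Cytochrome P450 genes fell in 23 of 29 cases in each strain, with 4 higher and 4 lower, a called share of 27.6%. The 4 higher were 1 or 2 without any one of 7 libraries (C57BL/6J normoxia 3, C57BL/6J hyperoxia 1 or 2, DBA/2J normoxia 1, 2 or 3 or DBA/2J hyperoxia 1), and 0 to 14 over the alternatives, while the lower count was 4 with every library left out and 4 to 5 over the alternatives. Cyp2j9 and Cyp2j11 fell more in DBA/2J (-2.03 and -1.24), and Por, the reductase that feeds electrons to these enzymes, was an opposite change with 0.61 and -0.53. Drug efflux pumps had 3 of 11 higher and 0 lower: Abcc2, Abcc1 and Slc47a1.

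Clock genes had 7 of 19 lower and 1 higher, with a median of -0.37, beside -0.16 for their level group and -0.21 after cyclic loess scaling. Nfil3, a repressor of the clock output, rose by 4.55 in C57BL/6J and 2.65 in DBA/2J (interaction -1.90, SE 0.248, edgeR adjusted p = 0.000465). Npas2 had 0.16 (edgeR adjusted p = 0.253) and -1.21 (edgeR adjusted p = 2.28e-07), and Arntl (BMAL1), with which it pairs, was an opposite change, with 0.41 and -0.39. The lower count was 4 to 9 over the alternatives, and the higher count was 0 without any one of 9 libraries (C57BL/6J normoxia 1, 2 or 3, C57BL/6J hyperoxia 1 or 3, DBA/2J normoxia 2 or 3 or DBA/2J hyperoxia 1 or 2) and 2 without DBA/2J normoxia 1, and 0 to 2 over the alternatives. Epidermal growth factor receptor genes had 4 of 12 lower and 1 higher: Egfr rose by 0.82 in C57BL/6J and had -0.01 in DBA/2J (edgeR adjusted p = 0.946), its feedback inhibitor Errfi1 rose by 3.10 and 1.58, and Erbb3 fell by 0.81 on the log2 scale and by 1.75. The single higher count was 2 without any one of 2 libraries (C57BL/6J hyperoxia 2 or DBA/2J hyperoxia 1), and 1 to 2 over the alternatives.

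Immediate early transcription factors rose in all 22 cases in both strains, with 2 higher and 4 lower. Klf4 rose by 2.73 and 4.18 (interaction 1.45, SE 0.234, edgeR adjusted p = 0.00147), and Jund by 2.35 and 1.62 (interaction -0.74). The 4 lower were 2 without any one of 6 libraries (C57BL/6J normoxia 1, C57BL/6J hyperoxia 1 or 2, DBA/2J normoxia 2 or DBA/2J hyperoxia 1 or 2), and over the alternatives the lower were 1 to 6 and the higher 2 to 5. Targets of p53 had 5 of 22 lower and 1 higher, led by the cell cycle inhibitor Cdkn1a, which rose by 5.22 and 3.87 (interaction -1.36, SE 0.198, edgeR adjusted p = 0.000582). The 5 were 2 or 3 without any one of 6 libraries (C57BL/6J normoxia 2 or 3, C57BL/6J hyperoxia 1 or 3, DBA/2J normoxia 3 or DBA/2J hyperoxia 2), and 2 to 6 over the alternatives, and the higher count was 2 without any one of 2 libraries (C57BL/6J normoxia 1 or C57BL/6J hyperoxia 2) and 1 to 2 over the alternatives. Calcium and potassium signalling had 2 of 16 higher and 2 lower, including the opposite changes Atp2a2, the endoplasmic reticulum calcium pump (0.43 and -0.60), and the potassium channel Kcnj10 (-0.63 and 0.26). The 2 lower were 1 without any one of 8 libraries (C57BL/6J normoxia 1, C57BL/6J hyperoxia 2 or 3, DBA/2J normoxia 2 or 3 or DBA/2J hyperoxia 1, 2 or 3), and over the alternatives the lower were 1 to 2 and the higher 1 to 3. The remaining lists had at most 3 called members: ribosome biogenesis 3 of 24, all lower, cell proliferation 1 of 24, lower, metallothioneins and zinc handling 1 higher and 1 lower of 12, histamine and amino acid enzymes 1 of 21, Hdc, and blood, fat and adrenal 1 of 7, Star, which was lower. Their called shares all lay under the 18.2% of all genes. Ribosome biogenesis had 5 lower without any one of 2 libraries (C57BL/6J hyperoxia 2 or DBA/2J normoxia 3), and 1 to 5 over the alternatives. The single calls in cell proliferation and metallothioneins were lost without most single libraries: proliferation had 0 lower without any one of 9 libraries (C57BL/6J normoxia 2 or 3, C57BL/6J hyperoxia 1 or 3, DBA/2J normoxia 1, 2 or 3 or DBA/2J hyperoxia 2 or 3), and metallothioneins 0 higher without any one of 9 libraries (C57BL/6J normoxia 1, 2 or 3, C57BL/6J hyperoxia 1 or 3, DBA/2J normoxia 2 or 3 or DBA/2J hyperoxia 2 or 3) and 0 lower without any one of 8 libraries (C57BL/6J normoxia 1 or 2, C57BL/6J hyperoxia 1, DBA/2J normoxia 1, 2 or 3 or DBA/2J hyperoxia 1 or 2), with 2 lower without DBA/2J hyperoxia 3. Over the alternatives these counts were 0 to 1 for proliferation and 0 to 2 higher and 0 to 1 lower for metallothioneins, and 0 to 1 for blood, fat and adrenal. The histamine and amino acid list had 2 or 3 lower without any one of 5 libraries (C57BL/6J normoxia 1 or 3, C57BL/6J hyperoxia 1 or 2 or DBA/2J normoxia 3), and 1 to 3 over the alternatives.

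Beside the genes whose losses are given above, in the fit of all 48 libraries Car9, C3ar1, Egf, Havcr1, Hsph1, Mmp9, Slc27a2, Slc34a1 and Slc47a1 missed the threshold for the interaction (edgeR adjusted p = 0.0598 to 0.213).

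The same interaction of strain and culture time, 24 h against 6 h of control culture, was fitted in 12 separate libraries. It passed for 117 of 16962 genes (0.69%), and 2242 had an unadjusted p-value under 0.05, against 5626 for hyperoxia. Of the 116 time-dependent genes in both fits, 46 were also called for hyperoxia, which is 39.7% of the time list and 1.47% of the hyperoxia list. Over the 3107 hyperoxia genes with a value for time the sign was shared in 59.6%, beside 53.04% of all genes, and for the opposite changes in 68.7%. A direct test of the difference between the 2 interactions, in a fit of all 24 libraries, passed for 721 of 18048 genes (3.99%), among them 589 of the 3134 hyperoxia genes (18.8%) and 55 of the 182 opposite changes. These 2 counts depended on the tool, with 360 for time and 1242 for the difference by DESeq2, and on single libraries, with 46 to 226 and 334 to 991 when each was left out in turn.

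Mlycd and Gcnt1 were among those that differed. Mlycd had a culture-time interaction of -0.06 (edgeR adjusted p = 0.939; difference 2.44, edgeR adjusted p = 8.31e-06), and Gcnt1 one of 1.51 (edgeR adjusted p = 0.00111; difference 6.80, edgeR adjusted p = 6.41e-09). In control slices Gcnt1 was at 77.1 to 111 CPM in C57BL/6J and 45.8 to 58.6 CPM in DBA/2J at 6 h and at 19.2 to 23.6 CPM and 28.3 to 33.1 CPM at 24 h, so C57BL/6J was higher at 6 h and lower at 24 h there too. Hdc had -1.34 in the controls and a difference of -4.22 (edgeR adjusted p = 0.000268), while for Rnase4 the culture-time interaction was -1.99 and the difference did not pass (edgeR adjusted p = 0.591). Hgsnat, a lysosomal acetyltransferase, had 0.28 for hyperoxia (edgeR adjusted p = 0.14) and -1.86 for time, and Gsta2 had 1.82 and 4.31.

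Of the cytosolic heat shock genes 7 of 22 passed in the controls, all higher in DBA/2J, with a median of 0.59, and under hyperoxia 10 were lower, and the difference passed for 11 by edgeR, all lower, and for 15 by DESeq2 and by limma voom. Hsph1 had 1.22 for time (edgeR adjusted p = 0.0181) and -1.02 for hyperoxia, a difference of -2.17 (edgeR adjusted p = 0.00119). Control slices of C57BL/6J held Hsph1 at 785 to 1333 CPM at 6 h, above the 296 to 344 CPM of DBA/2J. The edgeR test of the difference passed for 1 of 26 proteasome subunits (3 by DESeq2 and 4 by limma voom) and for 3 of 13 mitochondrial genes (6 by DESeq2 and 5 by limma voom). It passed for 0 of 22 endoplasmic reticulum folding genes, where 4 had an unadjusted p-value under 0.05, DESeq2 called 2 and limma voom 1. Of the 18 immune cell markers edgeR called 0, with 8 at an unadjusted p-value under 0.05, while DESeq2 called 3 and limma voom 5. Of the 30 nuclear respiratory chain subunits edgeR called 0 for the difference, with 20 at an unadjusted p-value under 0.05, while DESeq2 called 11 and limma voom 17. For most members of the proteasome, mitochondrial, folding and immune cell lists and for all 30 respiratory chain subunits a difference from the culture-time interaction was thus not shown by edgeR.

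**Figure D5:**
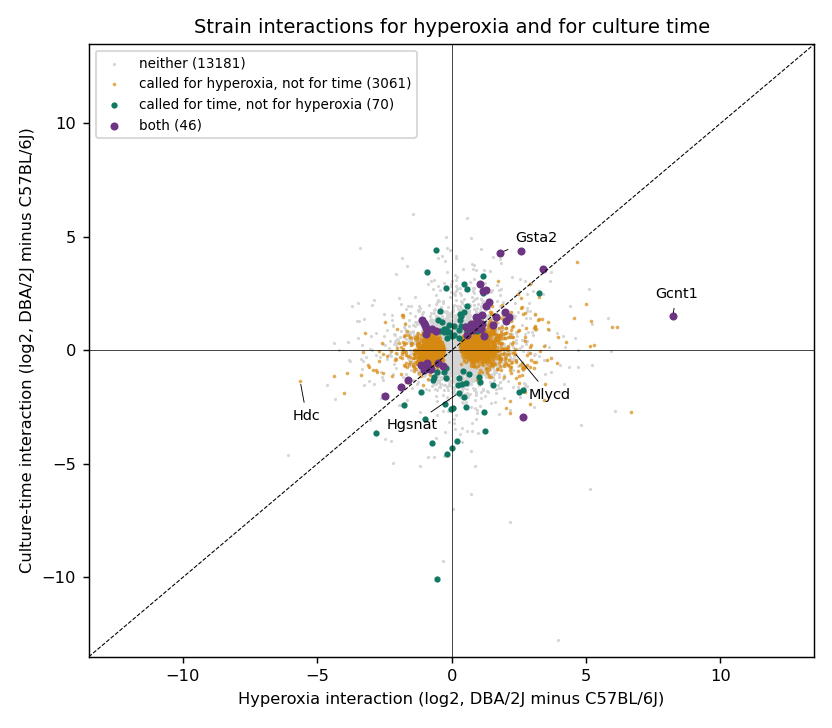
The interaction of strain and hyperoxia (x axis) and of strain and culture time in control slices (y axis), both as log2 differences of DBA/2J minus C57BL/6J, for 16358 genes in both fits, with a dashed line of equality. Genes called for hyperoxia and not for time (3061) spread along the x axis, and the 46 genes called in both lie mostly in the quadrants of equal sign.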

How the data were processed

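RNA of kidney slices was sequenced after a stranded mRNA ligation library preparation, per the labels' protocols. The authors deposited whole-number read counts per gene for the 48 libraries, not normalized. Per the submitters' processing notes the tools were bcl2fastq 2.20.0, FastQC 0.11.8, STAR 2.7.9a and featureCounts 1.5.1 with GRCm38, and the strand setting, annotation release and filters are not given in the sources used here. Symbols came from GENCODE M21 for 55227 of 55487 gene IDs.

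Groups followed the titles and labels, which name no sequencing batch. Counts of 12 libraries (3 per group, 8 residual degrees of freedom) were fitted with edgeR 4.0.16 in R 4.3.3 (TMM, filterByExpr, robust quasi-likelihood F test), and an adjusted p (Benjamini-Hochberg over all genes tested) under 0.05 was called. Standard errors were derived from the fold change and its F statistic. The script was tested on simulated data. The 12 control libraries were fitted in the same way, and all 24 together for the difference. CPM used library totals.

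Named genes had a mean log2 CPM of at least 1 and a gene name: the 8 smallest p in each direction, the 8 smallest among opposite changes, up to 4 called members per list, and a few fixed genes. Other list members in the text were chosen after their values were seen. Members and lists were chosen with earlier results of these data known. Alternatives were DESeq2 1.42.0, limma 3.58.1 voom, other scalings and filters, all 48 libraries, a replicate block and leaving out each library. Library totals from 5619309 to 25137581 set the counting precision, and low genes are the least certain. The labels do not say that replicates came from separate animals, so their spread may be technical. Some genes of the lists are counted in them but not reported by name here.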

Additional observations from a re-analysis of the deposited data

Results flagged for a closer look

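The difference between the strains was itself tested, and it passed for 3134 genes, of which 182 changed in opposite directions. The strain difference under hyperoxia also departed from that over culture time for 721 genes. The genes below drew attention because the strains moved in opposite directions, each by the edgeR test of the interaction. Mlycd (2.31), Gcnt1 (8.23) and Atp8b4 (3.25) fell in C57BL/6J and rose in DBA/2J. Hdc (-5.64), Nav2 (-1.43), Ang (-3.37), Scfd2 (-1.89) and Cdcp1 (-1.57) rose in C57BL/6J and fell in DBA/2J. Of these, Mlycd, Gcnt1 and Hdc also passed the test of the difference from culture time, with edgeR adjusted p = 8.31e-06, 6.41e-09 and 0.000268, and the other 5 did not, with values from 0.0554 for Nav2 to 0.159 for Scfd2. Groups of 3 were too small for a search for single outlying libraries.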

How the results depend on the processing

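The interaction count of 3134 lay between 2240 and 3364 with a library left out and was 2053 after cyclic loess scaling, which was chosen after seeing the data and run only for hyperoxia. Higher genes numbered 2086 without the filter on low counts (874 to 1421 with a library left out). Lower genes numbered 1018 with a mean CPM of at least 5, 963 after cyclic loess scaling and 1198 in the fit of all 48 libraries, and 1235 to 1943 with a library left out. Opposite changes ranged from 140 to 241, genes changed in C57BL/6J from 9797 to 10894 and in DBA/2J from 10918 to 11979 with a library left out. The culture-time count of 117 was 817 without a filter, 360 by DESeq2 and 1173 by limma voom, and 46 to 226 with a library left out: 226, 181 and 49 without C57BL/6J control 6 h replicates 1, 2 and 3, 58 and 48 without DBA/2J control 6 h replicates 2 and 3, 74, 74 and 46 without C57BL/6J control 24 h replicates 1, 2 and 3, and 61 without DBA/2J control 24 h replicate 3. The difference of 721 was 1439, 1242 and 1853 in the same order, and 334 to 991 with a library left out. It was 334 without C57BL/6J normoxia replicate 2, 395 and 436 without DBA/2J normoxia replicates 1 and 2, 379 and 474 without normoxia-hyperoxia replicate 1 of C57BL/6J and of DBA/2J, 448 without DBA/2J control 6 h replicate 1 and 447 without C57BL/6J control 24 h replicate 3. Directions turned for 3 genes that had not passed: Vegfa to 0.038 after cyclic loess scaling, Slc2a1 to -0.005366 without DBA/2J normoxia-hyperoxia replicate 3 (highest 0.2898) and Lcn2 to -0.09322 without DBA/2J normoxia replicate 2 (highest 1.16). The cause was not tested. Of 161 called named genes, 149 were tested in every fit, of which 112 stayed called under every alternative with all libraries and 106 also with each library left out, and 0 of the 161 reversed. The other 12, among them Atp8b4, mt-Atp6, mt-Atp8 and mt-Co2, were not tested with a mean CPM of at least 5 or with mitochondrial genes left out. The share of higher calls ran from 37.2% to 46.4% with a library left out.

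Same-numbered libraries were not taken as pairs, since not every pair correlated over 0.1: correlations of their deviations were 0.064, 0.179 and -0.042 in C57BL/6J and 0.303, 0.13 and 0.254 in DBA/2J, where all 3 passed 0.1 and all other combinations lay below 0, and 4 of 6 normoxia libraries correlated best with their own number. A fit with a replicate block called 3921 interaction genes, 3043 of them shared, with 250 opposite changes, 71 culture-time genes and 925 for the difference. In the lowest level group 2.99% of the genes were higher and 0.784% lower, and the part of sequencing depth in this was not tested.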

Other observations

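In all, 14 opposite changes exceeded a log2 value of 1 in both strains with no group at or under 3 counts, among them Gcnt1, Hdc and Atp8b4 described above, and some of the others were chosen for mention after their values were seen. Apoa2, an apolipoprotein of high-density lipoprotein, had -1.47 in C57BL/6J and 1.68 in DBA/2J. Tlr13, a receptor for bacterial ribosomal RNA, had -1.04 and 1.20, and Cd209a, a lectin of dendritic cells, -1.03 and 1.51. Cdh2, the cadherin of the proximal tubule, had -1.82 and 1.55, and Tns4, a focal adhesion protein, -1.15 and 1.03. Bcl2l15 went the other way, with 1.61 and -1.09.

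Among the genes named by p-value or by opposite change, 4 lie on chromosome 2 of GRCm38 as pairs near each other: Atp8b4 (126320973 to 126500674) with Hdc (126593667 to 126619299), and Tmem87b (128818118 to 128854261) with Fbln7 (128862981 to 128897034). Other genes can lie between the members of a pair. Hdc, Tmem87b and Fbln7 were lower and Atp8b4 higher. Protein-coding genes that were lower had a median exon length of 5135 bases, those that were higher 4191, and all tested 4335, and their median mean log2 CPM was 5.74, 3.85 and 4.31.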
